A study of Mus musculus with 15 samples.

Results

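Fibroblasts of the vessels and meninges were studied in the cerebellum of young mice and in medulloblastomas that arise there. They were chosen by their own genes from single-cell profiles. A barcode, which stands for 1 putative cell, was kept if it held at least 500 unique molecular identifiers (UMIs, each standing for 1 captured mRNA molecule) and at least 500 genes. It was taken as a fibroblast if it held at least 1 UMI in at least 3 of the 6 genes Col3a1, Col1a1, Col1a2, Dcn, Lum and Apod and at least 5 UMIs over them, and if no more than 1 of the endothelial genes Pecam1, Cldn5, Flt1 and Kdr was present. The rule found 414 of 38351 barcodes, and 18 others with enough fibroblast UMIs were set aside by the endothelial limit.

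Drop-seq, in which single cells are captured in droplets with barcoded beads, had been run on 15 mice in 3 groups of 5, all labelled C57BL/6. The WT group gave untreated cerebella at postnatal day 7 (P7). The other groups gave medulloblastomas of M-Smo mice (genotype Math1-Cre:SmoM2/EYFPloxP/loxP), taken at P15 after 3 daily doses that began at P12. One group was given vehicle and the other vismodegib, a blocker of the Hedgehog receptor component SMO, at 75 mg per kg. In M-Smo mice the Atoh1 promoter drives Cre in cerebellar granule neuron progenitors and so turns on SmoM2, a constantly active form of SMO, and fibroblasts lie outside that lineage. WT and tumor cells differed in age, genotype, tissue and capture device (PDMS for WT, glass for tumors), and the parts of these in any difference from WT cannot be told apart.

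Brain fibroblasts form the layers of the meninges and accompany the larger vessels. They secrete fibrillar collagens and the proteoglycans that space the fibrils, and they add to the basement membranes, sheets of type IV collagen and laminin on which endothelial cells and glia rest. Arachnoid barrier fibroblasts are further joined by tight and gap junctions and carry transporters that move organic anions and other solutes between the dura and the cerebrospinal fluid.

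The tables held between 2310474 and 17708677 UMIs per mouse. Fibroblast barcodes had a median of 2030.5 UMIs, with a range of 638 to 15869, and their summed profiles held 20334 to 204052 UMIs per mouse. No pair of the 15 tables had more than 13 barcodes in common. Vehicle replicate 5 gave 67 of the 106 vehicle fibroblasts and vehicle replicate 3 only 6, so calls that are lost without either mouse are named. Counts of barcodes that held a gene are pooled over mice and were not tested. In vehicle fibroblasts they rest mostly on replicate 5. The tumor mice were littermates assigned at random, the sources used here do not tell which mice shared a litter, and the p-values measure the spread between these mice.

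The label was first set against the genes of the rule, which are described without a test since they chose the barcodes. All 6 genes were present in 250 fibroblasts and only 3 in 23, and the sum over the genes had a median of 62 UMIs and a maximum of 1040. At the UMI limit, a sum of exactly 5 UMIs was found in 2 WT, 0 vehicle and 2 vismodegib fibroblasts, and a sum of 4 over at least 3 genes left out 2, 0 and 4 barcodes in the same order. At the limit on genes, just 3 were present in 4 WT, 4 vehicle and 15 vismodegib fibroblasts, and 3, 10 and 25 barcodes with 5 UMIs or more were left out since they held 2 genes. Dcn, the proteoglycan decorin, stood at 4507 ± 574 CPM in WT, 5940.4 ± 809 in vehicle and 6915 ± 1533 in vismodegib fibroblasts (mean ± SD, n = 5 mice each, as throughout). CPM are UMIs of a gene in the summed profile of a mouse, scaled to the same total in every mouse. In all other barcodes the Dcn means were 5.91, 2.21 and 6.61 CPM. Col3a1 and Col1a2, chains of the fibrillar collagens III and I, averaged 6827, 7817 and 4374 CPM and 4887, 4648 and 5985 CPM in WT, vehicle and vismodegib fibroblasts. Col1a1, the partner chain of Col1a2, averaged 1926, 1466 and 2021 CPM, and Lum, the proteoglycan lumican, 1118, 1640.3 and 1087 CPM. Of the endothelial rule genes Pecam1, Cldn5, Flt1 and Kdr, fibroblasts of all groups together held 2, 1, 8 and 12 UMIs.

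Apod, a secreted lipid-binding protein, differed most between the groups among the rule genes. It stood at 4527, 5755, 6164, 7551 and 8758 CPM in the WT mice. Vehicle tumors had 41337, 20907, 28376, 30616 and 27385 CPM, and vismodegib tumors had 12657, 12438, 20705, 44209.8 and 41661 CPM. Thus all 10 tumors lay above all 5 WT cerebella, and the vismodegib tumors spread from below to above the vehicle range.

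Genes that the rule did not use also carried the label. Of 414 fibroblasts, 404 held at least 2 UMIs of a list of 16 meningeal fibroblast genes, against group means of 3.69% to 5.6% of other barcodes. Summed over the list, fibroblasts held 20212 ± 10952 CPM in WT, 11659 ± 5624 in vehicle and 22049 ± 4309 in vismodegib, which is 98.7, 87.1 and 78.1 times the level in other barcodes. Most of these sums came from Ptgds and Igf2. Ptgds averaged 8948, 2917 and 11443 CPM and Igf2 7257, 5281 and 6016 CPM in WT, vehicle and vismodegib fibroblasts. The level of the list is thus mainly a measure of these genes. Within the list, Cdh1 held 0 UMIs in vehicle and in vismodegib fibroblasts, and Slc47a1 and Crabp2 held 0 in vehicle. Among genes with a mean of at least 1000 CPM in fibroblasts, those outside the rule with the highest ratio to other barcodes were Col15a1, a basement membrane collagen, Ptgds, which makes prostaglandin D2, Itih5, a hyaluronan-binding protein, Vtn, the adhesion protein vitronectin, and Igf2, a fetal growth factor. Averaged over the 15 mice, Vtn stood at 2692 CPM in fibroblasts and 11.6 in other barcodes, and Igf2 at 6185 and 35.4 CPM.

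**Figure D1:**
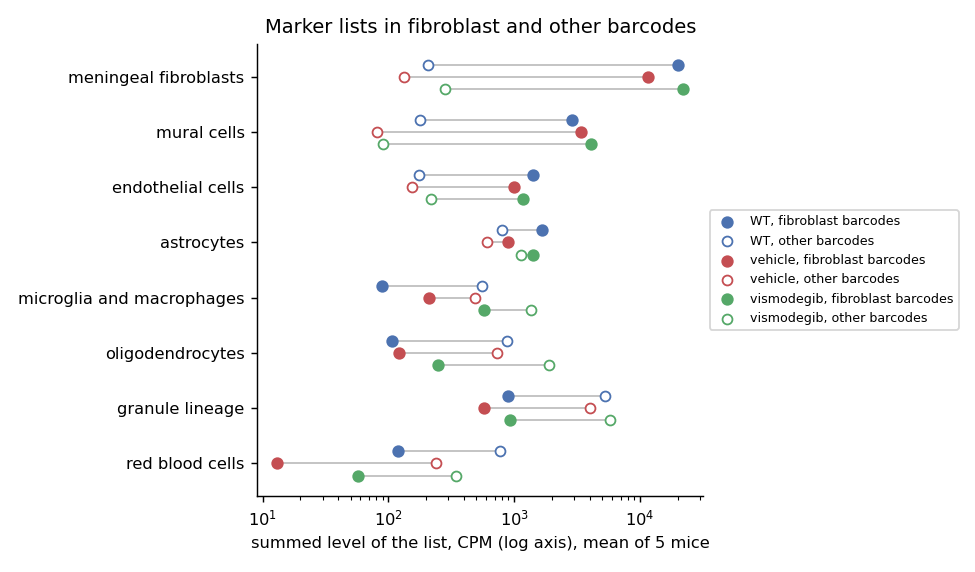
Summed level of 8 lists of cell type markers in CPM (log axis), as the mean of 5 mice, in fibroblast barcodes (filled) and all other barcodes (open) of each group. Meningeal, mural, endothelial and astrocyte lists are higher in fibroblast barcodes in all 3 groups, and the granule lineage list is at 14.2% to 16.7% of its level in other barcodes.

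Mural cells, the pericytes and smooth muscle cells that wrap vessels, share genes with fibroblasts, and their list was checked in the same way. At least 2 UMIs of its 14 genes were held by 331 fibroblasts. Of the UMIs of the list Vtn held 2873, while the defining pericyte gene Rgs5 was present in 3 of 157 WT, 3 of 106 vehicle and 11 of 151 vismodegib fibroblasts, the smooth muscle myosin Myh11 was at 0 in all, and smooth muscle actin Acta2 held 7 UMIs. In WT, 52 of 54 Rgs5 UMIs lay in 1 barcode, and in vehicle 85 of 121. Per mouse, the share of fibroblasts with 2 mural UMIs was 77.8% ± 5.69 in WT, 86.1% ± 4.99 in vehicle and 79.6% ± 7.66 in vismodegib. With each barcode thinned to 500 UMIs the means were 35.7%, 42.5% and 40.02%. Neither pair with vehicle passed the exact permutation test (2-sided, adjusted over 6 such tests: p = 0.167 against WT and 0.25 against vismodegib). Vtn alone can fill this share, so it is no measure of the other mural genes. Summed over the list, fibroblasts held 2883 ± 691 CPM in WT, 3398 ± 1625 in vehicle and 4068 ± 1534 in vismodegib. Vtn averaged 2602, 2734 and 2739 CPM of these, and the sums of the other mural genes were not tested.

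The endothelial list, without the 4 rule genes, averaged 1424, 992 and 1184 CPM in WT, vehicle and vismodegib fibroblasts and 174, 154 and 219 CPM in other barcodes. Of this list, Itm2a alone stood at 843 CPM or more in the fibroblasts of every WT mouse. Astrocyte genes, of which at least 2 UMIs were held by 245 fibroblasts, averaged 1669, 895 and 1404 CPM in fibroblasts and 797, 605 and 1125 in other barcodes. These sums hold Gja1, a gap junction gene also of arachnoid cells, and are no clean measure of astrocyte RNA. Granule lineage genes summed to 885, 572 and 923 CPM in the fibroblasts, between 0.733% and 32.8% of the level in the other barcodes of the same mouse. Microglial genes summed to 88.7 ± 29.1, 209 ± 228 and 574 ± 955 CPM, and 1 vismodegib tumor reached 2279 CPM. The share of fibroblasts with 2 granule UMIs, 31.6%, 14.4% and 29.2% in WT, vehicle and vismodegib, did not pass the test in either pair with vehicle (exact permutation, adjusted p = 0.143 and 0.238). Gene tests were repeated with free RNA subtracted and without barcodes that held 2 granule or microglial UMIs, and losses of a call there are given for the genes described where enough UMIs were left for a test; the part of this RNA in the results was not tested otherwise.

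Fibroblasts were a smaller share of barcodes in vehicle tumors than in WT cerebella, and a larger share in vismodegib than in vehicle tumors. WT cerebella held 1.95%, 1.76%, 3.22%, 2.02% and 1.96% fibroblasts. Vehicle tumors held 0.304%, 0.365%, 0.361%, 0.57% and 0.819%, and vismodegib tumors 1.16%, 0.816%, 1.67%, 1.07% and 1.59%. Every WT share lay above every tumor share, and vismodegib replicate 2 lay just under vehicle replicate 5. The means were 2.18% ± 0.591, 0.484% ± 0.213 and 1.26% ± 0.361. Vehicle was 4.51-fold lower than WT (exact permutation test, 2-sided, n = 5 against 5, p = 0.00794, the smallest this design can give, adjusted over the 3 pairs p = 0.0119). Vismodegib was 2.61-fold higher than vehicle (exact permutation, p = 0.0159, adjusted p = 0.0159) and 1.73-fold lower than WT (exact permutation, p = 0.00794, adjusted p = 0.0119). With each barcode thinned to 500 UMIs the means were 2.04%, 0.468% and 1.07%, and no groups overlapped.

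A share depends on what else was captured, so that more fibroblasts and fewer of the other cells cannot be told apart. Fibroblasts were therefore also set against the other stromal classes, a comparison added after the data had been seen. Endothelial barcodes (at least 2 of the 4 endothelial genes and 3 UMIs) and microglial barcodes (at least 3 microglial genes and 5 UMIs) numbered 170 and 664. Fibroblasts made up 51.3% ± 8.74 of these 3 classes in WT, 26.2% ± 5.97 in vehicle and 27.0% ± 2.05 in vismodegib. Vehicle lay under WT without overlap (exact permutation, adjusted p = 0.0119). Per endothelial barcode, however, there were 1.84 ± 1.31 fibroblasts in vehicle and 3.27 ± 1.64 in WT, which did not pass (exact permutation, adjusted p = 0.421), and endothelial barcodes themselves were 0.732% ± 0.202 of all barcodes in WT and 0.329% ± 0.139 in vehicle (exact permutation, adjusted p = 0.0476). Per microglial barcode there were 0.549 ± 0.28 fibroblasts in vehicle and 1.72 ± 0.515 in WT (exact permutation, adjusted p = 0.0238). As shares of the 3 classes, vismodegib and vehicle differed by 0.827 percentage points, within the spread between mice (exact permutation, adjusted p = 0.762). Microglial barcodes stood at 0.996% ± 0.427 of all barcodes in vehicle and 2.86% ± 0.837 in vismodegib over the same mice (exact permutation, adjusted p = 0.0238).

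**Figure D2:**
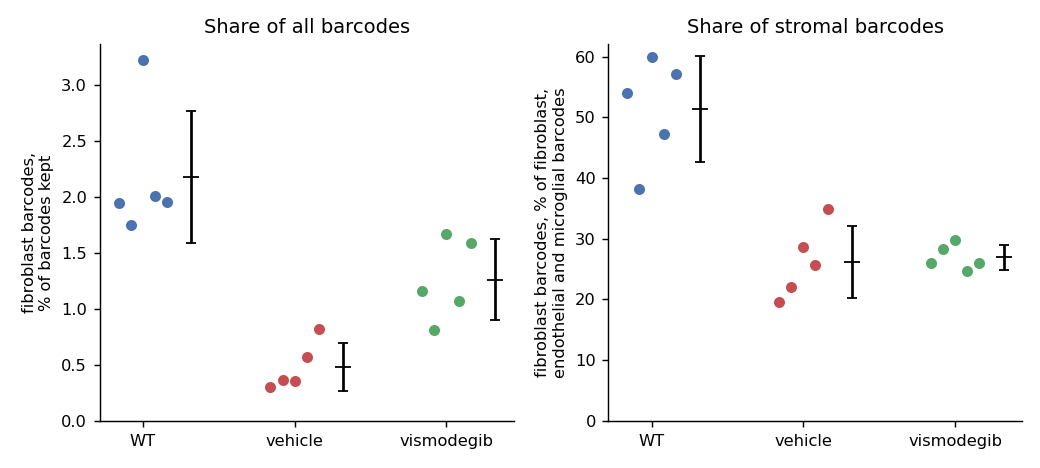
Fibroblast barcodes of each mouse (points) as a percentage of all barcodes kept (left) and of fibroblast, endothelial and microglial barcodes together (right), with mean ± SD beside them. The left panel has the vismodegib mean between those of WT and vehicle, and in the right panel the vismodegib and vehicle means are 27.0% and 26.2%.

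Cell division markers were also counted in fibroblasts. At least 2 UMIs of the proliferation list were held by 34.4% ± 11.8 of WT, 27.6% ± 13.8 of vehicle and 36.8% ± 13.3 of vismodegib fibroblasts, against 54.4% to 68.1% of other barcodes. Thinned to 500 UMIs the shares were 11.9%, 10.4% and 7.23%, against 39.3%, 45.9% and 34.8% of other barcodes. The summed list stood at 35.5%, 16.8% and 27.4% of its level in other barcodes in WT, vehicle and vismodegib. The granule lineage list stood at 16.7%, 14.2% and 16.1%. The part of free RNA in the proliferation shares was not tested. Neither pair with vehicle passed (exact permutation, adjusted p = 0.405 against WT and 0.4 against vismodegib). Top2a, the topoisomerase of dividing cells, was the sole member of that list with enough UMIs for a gene test and was not called in either comparison.

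Next, gene levels in fibroblasts were compared between groups on UMIs summed per mouse, with edgeR's quasi-likelihood test and Benjamini-Hochberg adjustment over all 841 genes that had enough UMIs. Enough UMIs were needed in as many mice as 1 group holds, so a gene high in 1 group alone could pass this limit. For such a gene, a lack of overlap with another group is partly set by the limit itself. A gene was called at an adjusted p under 0.05. In sums of this kind, fewer cells with a transcript and less transcript per cell cannot be told apart. Both comparisons share the vehicle mice, so their values are set side by side and no overlap between them is read. A second test asked whether a gene's change in fibroblasts differed from its change in the other barcodes of the same mice, and it called 6.18% of genes between vismodegib and vehicle (1.19% higher in fibroblasts and 4.99% lower) and 21.8% between vehicle and WT (13.8% higher and 7.97% lower). Far fewer genes were called in both comparisons once the other barcodes were thinned to the fibroblast total, as given below.

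Vismodegib and vehicle fibroblasts differed in 6 of the 841 genes (0.713% called), 5 higher (0.595%) and 1 lower (0.119%) with vismodegib. With any 1 mouse left out, 1 to 14 genes were called. Without adjustment, 90 genes had a p under 0.05, which is 10.7%. Higher were Slc22a6 and Gjb6, a transporter and a gap junction protein found in the arachnoid, the matrix proteoglycan gene Ogn, the GTPase regulator Arhgap29 and the lipid carrier Apoe. Lower was Pla2g7, a secreted phospholipase that breaks down platelet-activating factor. One alternative fit held a term for a division of the tumors (vehicle replicates 1 and 3 with vismodegib replicates 1, 2 and 3, against the rest) that earlier work drew from gene levels in these data and no label gives. Groups did not overlap for 5 of the 6 genes, Ogn being the exception, and over all genes 2.14% had groups that did not overlap.

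Slc22a6 (OAT1, chromosome 19, 8618039 to 8628299 on GRCm38) encodes an organic anion transporter. Vehicle tumors had 133, 84.6, 49.2, 161 and 131 CPM in fibroblasts, and vismodegib tumors had 469, 292, 302, 394 and 348 CPM. All 5 vismodegib values lay above all 5 vehicle values, within the range of the WT mice, which was 251 to 740.1 CPM. The sums of vehicle replicates 1 to 4 held only 20334 to 31030 UMIs, so their values rest on few UMIs of the gene. The log2 fold change was 1.68 ± 0.332 (SE; edgeR adjusted p = 0.0135). The mean in other barcodes was 0.0369 CPM in vehicle and 0.646 in vismodegib, and the test of the difference between the changes did not pass (-1.29, edgeR adjusted p = 0.279). Pooled over mice, at least 1 UMI was found in 56 of 151 vismodegib, 21 of 106 vehicle and 78 of 157 WT fibroblasts (12.6%, 3.77% and 19.7% after thinning). Of vismodegib microglial barcodes, 2 of 366 held one. These barcodes had a median of 2240.5 UMIs against 2455 in vismodegib fibroblasts. The call was lost without vehicle replicate 2 or 5 or vismodegib replicate 4, or with sums thinned to the smallest, and the gene had too few UMIs for a test with only these groups or with the tumor set as a term.

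Gjb6 (connexin 30, chromosome 14, 57123303 to 57133611) forms gap junctions in arachnoid cells and astrocytes. Its levels were 44.5, 0, 49.2, 226 and 149 CPM in vehicle and 685, 350.4, 332, 581 and 328 CPM in vismodegib fibroblasts, with no overlap (log2 fold change 2.03 ± 0.407, edgeR adjusted p = 0.0135). Gjb6 passed the limit on UMIs through the vismodegib mice, where it was high, so this lack of overlap is partly set by that limit. The sums of vehicle replicates 1, 2 and 3 held 22474, 23628 and 20334 UMIs, so their values rest on very few UMIs of the gene. Other barcodes averaged 4.21 and 11.1 CPM, and the changes were not called different (0.73, edgeR adjusted p = 0.615). Astrocyte genes as a list summed to 895 ± 272 CPM in vehicle and 1404 ± 181 in vismodegib fibroblasts, and Gja1, the other connexin of both cell types, had a log2 fold change of 0.71 (edgeR adjusted p = 0.329). The astrocyte list holds Gja1 itself, so its sums are no clean measure of astrocyte RNA. The part of astrocyte RNA in the Gjb6 values was not tested. The call was lost without vehicle replicate 5 or vismodegib replicate 4, or with only these groups in the fit, and the gene had too few UMIs for a test with thinned sums or without barcodes that held 2 granule or microglial UMIs.

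Ogn encodes osteoglycin, a small proteoglycan of the matrix (chromosome 13, 49608046 to 49624501). Vehicle tumors had 222, 0, 0, 32.2 and 23.9 CPM in fibroblasts. Vismodegib tumors had 108, 263, 423, 394 and 152 CPM and WT cerebella 539, 590.2, 328, 765 and 592 CPM. Apart from vehicle replicate 1, all vehicle values lay under all vismodegib values (log2 fold change 2.80 ± 0.612, edgeR adjusted p = 0.0196). In all, 10 vehicle UMIs stood behind these values, against 114 for vismodegib and 200 for WT. Other barcodes averaged 0.236 CPM in vehicle and 1.71 in vismodegib, and the difference between the changes was not called (1.00, edgeR adjusted p = 0.762). Without vehicle replicate 1 the log2 fold change was 3.75, and without vehicle replicate 5 it was 2.18. The call was lost without any 1 of vehicle replicates 2, 4 and 5 or vismodegib replicates 3 and 4, and without the barcodes that held 2 granule or microglial UMIs (2.48, edgeR adjusted p = 0.142). It was also lost with the replicate block, and the gene had too few UMIs for a test with only these groups, with thinned sums or with the tumor set as a term.

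Arhgap29, a GTPase-activating protein (chromosome 3, 121952541 to 122016753), was called under every alternative tried. Levels were 222, 127, 344, 161 and 292.7 CPM in vehicle and 685, 759, 513, 678 and 529 CPM in vismodegib, so that the lowest vismodegib tumor was above the highest vehicle tumor. The log2 fold change was 1.50 ± 0.271 (edgeR adjusted p = 0.0111). In all other barcodes its mean was 19.5 CPM in vehicle and 21.6 in vismodegib. The change in fibroblasts exceeded the change there by 1.21 on the log2 scale (edgeR adjusted p = 0.0251), but not once the other barcodes were thinned to the fibroblast total (0.29, edgeR adjusted p = 0.992).

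Apoe (chromosome 7, 19696109 to 19699188) had the highest level of the 6 genes. Vehicle fibroblasts held 3916, 3682, 1426, 5156 and 4103 CPM and vismodegib fibroblasts 7212, 5956, 8511, 10786 and 12227 CPM, without overlap (log2 fold change 1.39 ± 0.3, edgeR adjusted p = 0.0196). The mean in other barcodes was 1175 CPM in vehicle and 3486 in vismodegib, and the test of the difference between the changes did not pass (-0.38, edgeR adjusted p = 0.636). Microglia express Apoe strongly, and 1 vismodegib fibroblast barcode held 833 of the 4740 UMIs. Without the barcodes that held 2 granule or microglial UMIs the log2 fold change was 1.62 (edgeR adjusted p = 0.0122). The call was lost without vehicle replicate 2 or 5 or any 1 of vismodegib replicates 3, 4 and 5, or with only these groups in the fit.

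Pla2g7 (chromosome 17, 43568098 to 43612201) was lower with vismodegib. Vehicle fibroblasts held 267, 466, 344, 612 and 251 CPM and vismodegib fibroblasts 72.1, 0, 121, 131 and 88.2 CPM, again without overlap (log2 fold change -1.85 ± 0.403, edgeR adjusted p = 0.0196). Pla2g7 passed the limit on UMIs only through the vehicle mice, where it was high. The lack of overlap is thus partly set by that limit and is no separate support. In other barcodes the mean was 33.7 CPM in vehicle and 119 in vismodegib. The difference between these changes was -3.94 (edgeR adjusted p = 4.21e-05), and -3.44 with the other barcodes thinned (edgeR adjusted p = 0.00068). The call in fibroblasts was lost without vehicle replicate 2 or 4 or vismodegib replicate 1 or 3, and after free RNA was subtracted. In 12 further settings the gene had too few UMIs to be tested, among them those without vehicle replicate 5, without vismodegib replicate 4 or 5, without any 1 WT mouse and without barcodes that held 2 granule or microglial UMIs.

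**Figure D3:**
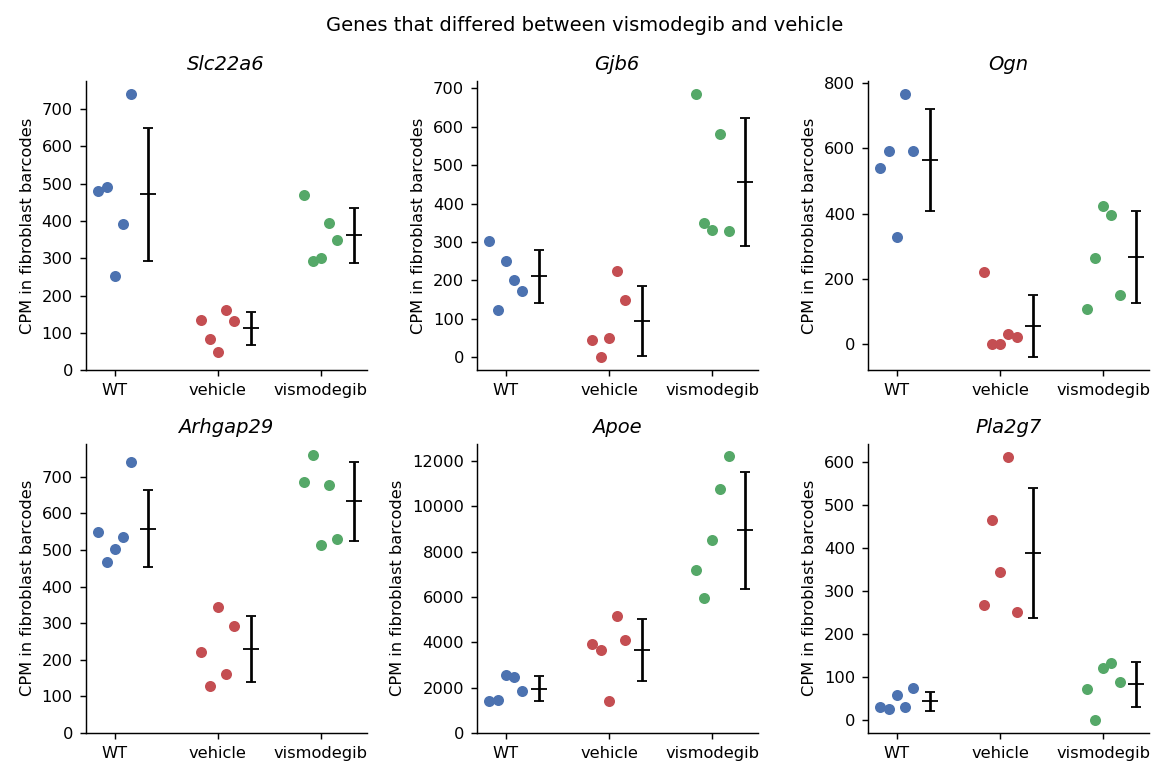
Level of the 6 called genes in the fibroblasts of each mouse (points, CPM) with mean ± SD, by group. Vismodegib and vehicle do not overlap for Slc22a6, Gjb6, Arhgap29, Apoe and Pla2g7, and for Ogn 1 vehicle tumor at 222 CPM lies within the vismodegib range.

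Ptgds, an arachnoid gene, was chosen after its values had been seen and was not called. WT cerebella had 18872, 172, 1488, 23589 and 617 CPM. Vehicle tumors had 13304, 127, 98.4, 64.5 and 991 CPM, and vismodegib tumors 6347, 5781, 15121, 14654 and 15315 CPM. Levels thus spread widely within WT and vehicle, and vehicle replicate 1, the tumor with the most Ogn of its group, also had the most Ptgds. The log2 fold change between the tumors was 2.03 ± 1.10 (edgeR adjusted p = 0.503). Pooled over mice, at least 1 UMI was held by 96 of 151 vismodegib, 12 of 106 vehicle and 36 of 157 WT fibroblasts (49.0%, 6.60% and 17.2% after thinning). Vehicle replicate 5 gave 67 of these 106 vehicle fibroblasts, so the pooled share is no measure of the spread between mice. In microglial barcodes, with median depths of 2240.5, 2208 and 1672 UMIs, the shares were 4.92%, 2.00% and 4.08%.

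Counts of called genes on lists of fibroblast functions are given for vismodegib against vehicle beside the 0.713% called over all genes. None of 10 collagens outside the rule that could be tested was called (median log2 fold change -0.37, beside 0.00317 over all genes), nor any of 5 genes of collagen processing, 11 matrix proteases and inhibitors, 4 genes of the TGF-beta pathway, 9 secreted signals or 6 fibroblast transcription factors. Of 19 matrix proteoglycans and glycoproteins, Ogn alone was called, and of 11 solute carriers and barrier genes, Slc22a6 and Gjb6. Of 9 tested genes of the meningeal fibroblast list, Slc22a6 alone was called, with a median log2 fold change of 0.47. Col4a1, a chain of type IV collagen, had a log2 fold change of -0.42 ± 0.288 (edgeR adjusted p = 0.592) and Igf2 one of 0.29 ± 0.237 (edgeR adjusted p = 0.689).

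The Hedgehog pathway, the target of vismodegib, had too few UMIs in fibroblasts for any of its 14 listed genes in the tables to be tested. Gli1, a direct target gene of the pathway, held 6 UMIs in WT, 6 in vehicle and 2 in vismodegib fibroblasts. Its level was 14.4 ± 20.3 CPM in vehicle fibroblasts and 70.0 CPM in the other barcodes of those tumors. Hhip, a pathway inhibitor, held 0, 1 and 1 UMIs in WT, vehicle and vismodegib. Ptch1, the main receptor, held 1 UMI in all, and Smo itself 7, 3 and 10. Gli2 and Gli3, the other GLI factors, held 10 and 15 UMIs over all fibroblasts. A change of pathway genes in fibroblasts was not detectable at this depth. The Cre transgene was at 0, 0, 344, 96.7 and 627 CPM in vehicle and 180.3, 117, 1026, 111 and 127 CPM in vismodegib fibroblasts, with means of 1974 and 876 CPM in other barcodes, and the SmoM2-EYFP row held 0 UMIs in fibroblasts of all groups.

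Vehicle tumors and WT cerebella were compared next, to set tumor fibroblasts against those of the normal early postnatal cerebellum. Of 841 genes, 262 were called (31.2%), 116 higher (13.8%) and 146 lower (17.4%) in vehicle tumors, and 18.7% had groups that did not overlap. With no filter on low counts 128 genes were higher and 399 lower, 169 of the 262 calls remained, and those of Pdgfrb, Pdgfra, Fgfr1, Col4a1, Col6a1, Lamb1, Igfbp4, Il34, Tjp1, Ctsb, Ctsk and Ifitm1 were among the calls lost. Too few UMIs were left to test 49 of the 262 after free RNA was subtracted and 119 without barcodes that held 2 granule or microglial UMIs. Neither test could be made for Klf2, Rhob, Slc22a8 and Tjp1, and the second could not for Htra3, Pla2g7, Gadd45a, Gpc3, Pdgfrb, Fgfr1, Lama1, Lamc1, Cyr61, Il34, Ifitm1 and Alcam. Col4a2, Spp1, Igfbp5 and Pdgfrb were among the genes that rose, and Ogn, Slc22a6, Cldn11 and Gja1 among those that fell.

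Of the 10 collagens outside the rule, 5 rose and none fell, 50% against 13.8% of all genes, with a median log2 fold change of 1.03 beside 0.0146 for all genes. They were Col4a1, Col4a2, Col6a1, Col15a1 and Col18a1, of which all but Col6a1 belong to basement membranes. The Col6a1 call was lost in 11 settings, among them those without any 1 WT mouse, without vehicle replicate 1 or 3 and with the replicate block. Col4a2 was at 1293, 1082, 696, 621 and 1135 CPM in WT and 2136, 2624, 5115, 2868 and 2921 CPM in vehicle tumors, which do not overlap (log2 fold change 1.67 ± 0.266, edgeR adjusted p = 4.43e-05). Col18a1, the source of endostatin, was at 428 ± 129.9 and 1205 ± 518 CPM (1.47 ± 0.32, edgeR adjusted p = 0.00124). The changes of Col4a2 and Col18a1 were called different from those in other barcodes (edgeR adjusted p = 0.00393 and 0.00331). With the others thinned they were not (edgeR adjusted p = 0.391 and 0.45). Col15a1 averaged 582 ± 181 and 1973 ± 2075 CPM (1.69 ± 0.468, edgeR adjusted p = 0.00818). Here vehicle replicate 3, with 5656 CPM, stood far above the others, and without it the log2 fold change was 0.87 and not called. Col5a2, a chain of fibrillar collagen V chosen after its value was seen, had a log2 fold change of -0.68 (edgeR adjusted p = 0.0691).

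Of the laminin chains named here, 4 rose and Lama2 was not called. Lama4, Lamb1 and Lamc1, which together form a laminin of vessel walls, and Lama1, a chain of meningeal basement membranes, had log2 fold changes of 1.79, 1.09, 1.58 and 2.17 and were all called, the first 3 being named after their values were seen. Lama4 stood at 176, 98.4, 348, 182 and 173 CPM in WT and 445, 719, 1623, 612 and 388 CPM in vehicle, without overlap (edgeR adjusted p = 0.000933). The change of Lama1 was not called different from that in other barcodes (edgeR adjusted p = 0.408). Nid1, the linker of laminin and type IV collagen, was at 1024 and 1321 CPM (log2 fold change 0.37, edgeR adjusted p = 0.227) and Lama2 at 281 and 269 CPM (edgeR adjusted p = 0.683). Over all 19 matrix proteoglycans and glycoproteins, 8 rose (42.1% beside 13.8% of all genes), 1 fell (beside 17.4%) and 10 were not called, with a median of 0.86 beside 0.0146.

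**Figure D4:**
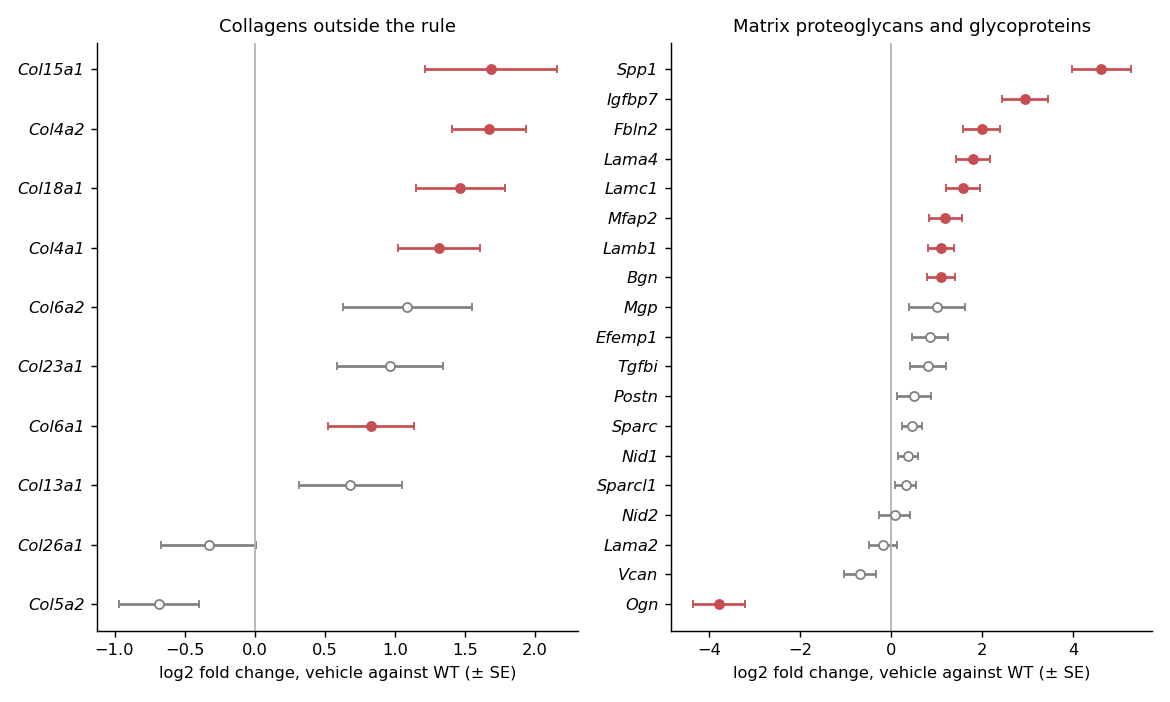
Log2 fold change of vehicle against WT fibroblasts (± SE) for the 10 tested collagens outside the rule (left) and the 19 tested matrix proteoglycans and glycoproteins (right), red where called. Col4a1, Col4a2, Col15a1, Col18a1, Lama4 and Lamc1 are above 1, and Ogn is at -3.78.

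Htra3 and Spp1 had the largest rises under the naming rule. Spp1 encodes osteopontin, a secreted adhesion protein, and was at 58.8, 0, 58.0, 19.1 and 24.7 CPM in WT and 1424, 508, 344, 1031 and 1123 CPM in vehicle, without overlap (log2 fold change 4.61 ± 0.647, edgeR adjusted p = 1.25e-05). Other barcodes averaged 154 and 29.1 CPM, and the change in fibroblasts differed from theirs by 5.94 with the others thinned (edgeR adjusted p = 5.11e-09). Microglia also express Spp1, and pooled over mice it was present in 38.5% of vehicle microglial and 56.6% of vehicle fibroblast barcodes. Htra3, a secreted serine protease, held 6 UMIs in WT fibroblasts, 130 in vehicle and 164 in vismodegib. Its change differed from that in other barcodes by 5.89 (edgeR adjusted p = 1.55e-05), but was not called different with the others thinned. Without WT replicate 1 the log2 fold change of Htra3 was 5.55. By mouse it was at 0 to 39.2 CPM in WT and 96.7 to 1100.4 CPM in vehicle (4.65 ± 0.616, edgeR adjusted p = 7.95e-06), and 0 of 200 vehicle microglial barcodes (median 2208 UMIs) held a UMI. That count allows a share of up to 1.50% of barcodes with a UMI, and it sets no limit on cells that express the gene.

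Binding proteins of insulin-like growth factors moved in both directions. Igfbp5 was at 236 ± 176 CPM in WT and 1659 ± 808 in vehicle (log2 fold change 2.72 ± 0.391, edgeR adjusted p = 1.52e-05), with all vehicle tumors above all WT cerebella, while other barcodes averaged 184 and 13.4 CPM. The difference between these changes was 7.65 with the others thinned (edgeR adjusted p = 5.32e-15). Without WT replicate 1 the log2 fold change of Igfbp5 was 3.41. Igfbp4 and Igfbp7 rose as well, by 1.09 and 2.94 on the log2 scale, and Igfbp2 fell by 0.80 (edgeR adjusted p = 0.0244). That last call was lost without WT replicate 5, without vehicle replicate 3 (which is also the sole mouse with under 10 fibroblasts), with only these groups in the fit, with free RNA subtracted and with thinned sums. Igf2 itself stood at 7257 CPM in WT and 5281 in vehicle (log2 fold change -0.48, edgeR adjusted p = 0.123).

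Of 8 growth factor receptors and adhesion genes tested, 3 rose (37.5% beside 13.8% of all genes), 1 fell and 4 were not called. Pdgfrb, the receptor for platelet-derived growth factor B on perivascular cells, was at 108, 73.8, 19.3, 57.3 and 74.0 CPM in WT and 311, 254, 344, 290.0 and 137 CPM in vehicle, without overlap (log2 fold change 1.70 ± 0.43, edgeR adjusted p = 0.00409). Its change was called different from that in other barcodes (edgeR adjusted p = 0.000137), but not with the others thinned (edgeR adjusted p = 0.218). Pdgfra, the related receptor that marks fibroblasts, rose by 1.43 (edgeR adjusted p = 0.00125; named after its value was seen), and Fgfr1, a fibroblast growth factor receptor, by 1.53 (edgeR adjusted p = 0.000617). Alcam, an adhesion protein, fell by 1.63 on the log2 scale (edgeR adjusted p = 0.0177), a call lost without WT replicate 4 or vehicle replicate 5.

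Further rises concerned single genes of several functions. Trf, the iron carrier transferrin, was at 78.4, 246, 464, 143 and 197 CPM in WT and 1424, 1608, 1623, 1611 and 1039 CPM in vehicle (log2 fold change 2.73 ± 0.362, edgeR adjusted p = 7.95e-06). Pla2g7 was at 24.6 to 74.0 CPM in WT and 251 to 612 CPM in vehicle (3.15 ± 0.469, edgeR adjusted p = 2.29e-05). It had too few UMIs for a test in 10 settings, among them those without vehicle replicate 5 and without any 1 WT mouse. As above, Pla2g7 passed the limit on UMIs only through the vehicle mice, where it was high, so its distance from WT is partly set by that limit. The other large rises that met the naming rule were those of Rhob, a small GTPase, Gadd45a, a stress gene, Capns1, a calpain subunit, and Fbln2, the matrix protein fibulin-2, at 2.57, 2.44, 2.20 and 1.99 on the log2 scale, and Rhob was at 4.25 without WT replicate 1. Of these genes, the changes of Rhob and Gadd45a were called different from those in other barcodes (edgeR adjusted p = 0.00612 and 0.0395). Those of Capns1 and Fbln2 were not (edgeR adjusted p = 0.112 and 0.0885). Aldh1a1, which makes retinoic acid, rose by 2.34. That change was called different from the one in other barcodes (edgeR adjusted p = 0.000197), but not with the others thinned (edgeR adjusted p = 0.835). Il34, a ligand of the microglial receptor CSF1R, rose by 1.69 (edgeR adjusted p = 0.00322).

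Immediate early genes respond to tissue dissociation among other things. Of 11 tested on their list, Jun and Klf2 rose, 18.2% against 13.8% of all genes, Hspa8 fell and 8 were not called. Jun was at 383 ± 142 and 2256 ± 1349 CPM in fibroblasts and 182 and 1179 CPM in other barcodes, and the test of the difference between the changes did not pass (-0.23, edgeR adjusted p = 0.718). Klf2, a factor also induced by blood flow, was at 9.56 to 49.3 CPM in WT and 178 to 1708 CPM in vehicle (log2 fold change 4.30 ± 0.679, edgeR adjusted p = 4.22e-05). Without vehicle replicate 4 the log2 fold change was 3.40, and without vehicle replicate 5 the gene had too few UMIs for a test. Pooled over mice, Klf2 was present in 40.6% of vehicle fibroblasts and 26.5% of vehicle microglial barcodes. The part of dissociation in these values was not tested.

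**Figure D5:**
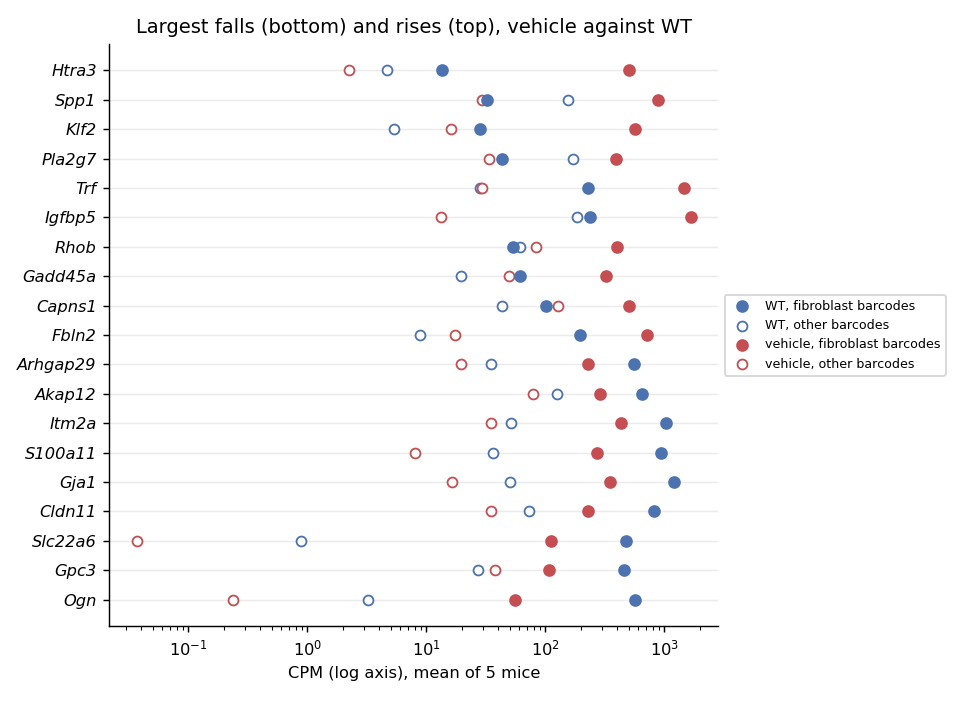
Mean level (CPM, log axis, 5 mice) of the 10 largest rises and 9 of the 10 largest falls by the naming rule, vehicle against WT, in fibroblast barcodes (filled) and all other barcodes (open). From WT to vehicle, Spp1, Pla2g7 and Igfbp5 move up in fibroblasts and down in other barcodes, and Slc22a6, Ogn, Gja1 and Cldn11 move down in both.

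Among the genes that fell from WT to vehicle, Ogn had the largest change under the naming rule, -3.78 ± 0.57 on the log2 scale (edgeR adjusted p = 2.61e-05), at the levels given above, and it was -4.76 without vehicle replicate 1 and -3.15 without vehicle replicate 5. Slc22a6 fell by 1.95 (edgeR adjusted p = 8.21e-05). Cldn11, a tight junction claudin of the arachnoid barrier, was at 754, 738, 618, 984 and 962 CPM in WT and 133, 254, 246, 290.0 and 215 CPM in vehicle, with no overlap (-1.87 ± 0.31, edgeR adjusted p = 7.83e-05). Gja1, connexin 43, was at 1199 ± 345 and 352 ± 107 CPM (-1.80 ± 0.27, edgeR adjusted p = 2.53e-05). The astrocyte list was at 1669 and 895 CPM in the same fibroblasts, but these sums hold Gja1 itself and are no separate measure of astrocyte RNA. The part of astrocyte RNA in the Gja1 values was not tested. Arhgap29 fell by 1.24 (edgeR adjusted p = 0.00125), and Gjb6 was at 210.3 ± 69.9 and 93.7 ± 91.7 CPM and not called (edgeR adjusted p = 0.106). For Ogn, Cldn11, Gja1 and Arhgap29 the change was not called different from that in other barcodes (edgeR adjusted p = 0.901, 0.328, 0.838 and 0.984). For Gjb6 it was (-2.67, edgeR adjusted p = 0.00864), but not with the others thinned.

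Of 11 solute carriers and barrier genes tested, 3 fell (beside 17.4% of all genes), 6 were not called and 2 rose (18.2% beside 13.8%): Slc22a8, a further organic anion transporter (1.98, edgeR adjusted p = 0.00701), and Tjp1, a scaffold of tight junctions (1.92, edgeR adjusted p = 0.0114). In vismodegib fibroblasts Cldn11 was at 303 ± 168 CPM and Gja1 at 512 ± 105 CPM, and neither was called against vehicle (log2 fold changes 0.47 and 0.71). Slc22a8 and Tjp1 had too few UMIs for a test in 13 and 12 of the other settings, among them those without vehicle replicate 5 and without any 1 WT mouse. Of 9 tested genes of the meningeal fibroblast list, Slc22a6 and Cldn11 fell, Lama1 rose and 6 were not called. That is 33.3% called in either direction beside 31.2% of all genes.

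Other large falls were those of Gpc3, a glypican that binds growth factors, S100a11, a calcium-binding protein, Itm2a, a membrane protein, and Akap12, a scaffold of protein kinase A. Gpc3 was at 353, 393, 425, 296 and 839 CPM in WT and 267, 42.3, 49.2, 96.7 and 83.6 CPM in vehicle (-2.18 ± 0.454, edgeR adjusted p = 0.000859), and its change differed from that in other barcodes by -2.74 with these thinned (edgeR adjusted p = 0.00897). Vismodegib fibroblasts held 90.7 ± 59.4 CPM of Gpc3. S100a11, Itm2a and Akap12 fell by 1.74, 1.34 and 1.25, and the call of Akap12 was lost with thinned sums. None of these changes was called different from that in other barcodes (edgeR adjusted p = 0.496, 0.0638 and 0.432). Itm2a is on the endothelial list, which averaged 1424 CPM in WT and 992 in vehicle fibroblasts. These sums hold Itm2a itself and are no separate measure of endothelial RNA, and the part of such RNA in the Itm2a values was not tested. Mdk, the growth factor midkine, fell by 1.07 (edgeR adjusted p = 0.00521), with 1454 ± 116 CPM in WT, 662 ± 325 in vehicle and 1044 ± 301 in vismodegib.

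Beside the 31.2% of all genes called in either direction, none of 5 genes of collagen processing was called, with Serpinh1, the collagen chaperone, at 1326 ± 303 and 1326 ± 431 CPM. None of 6 fibroblast transcription factors was called, with Zic1 at 650.1 ± 117 and 824 ± 181 CPM (log2 fold change 0.30, edgeR adjusted p = 0.358), nor any of 3 genes of complement and chemokines. In the TGF-beta list Cyr61, a matricellular target gene, rose by 2.72 (edgeR adjusted p = 0.00173) and 3 were not called, so that 25% rose beside 13.8% of all genes. Of 11 matrix proteases and inhibitors 4 rose, Htra3, Mmp14, Ctsb and Ctsk, 36.4% beside 13.8% of all genes. The Ctsb call (1.18) was lost with no filter on low counts and with thinned sums, and that of Ctsk in the same settings and without WT replicate 4. Of 5 interferon and MHC class I genes Ifitm1 rose (20% beside 13.8%), a call lost with no filter on low counts and without WT replicate 1 or 5 or vehicle replicate 1.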

How the data were processed

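Single cells of 15 mice were profiled by Drop-seq. The authors ran Drop-seq Tools and STAR (mm10, with transgene sequences added and a human spike-in removed from tumors, keeping barcodes with over 90% mouse transcripts) and deposited raw UMI counts per gene and barcode, not normalized. Groups were taken from the labels. The members of the class, the gene lists and the tests were chosen with earlier results of these data known. Counts were summed per mouse over fibroblast barcodes and tested in R 4.3.3 with edgeR 4.0.16 (TMM, filterByExpr, quasi-likelihood test, all 3 groups in 1 fit), with DESeq2 1.42.0 as an alternative. A second model compared the change in fibroblasts with that in the other barcodes of the same mice. Shares were compared by exact permutation tests, 2-sided, adjusted by Benjamini-Hochberg. The calls were checked on simulated counts with 200 changed genes, where 2-fold changes were missed more often than 4-fold ones. Some unchanged genes were called there in both comparisons. Doublets were not removed beyond the endothelial limit. Named genes are the 10 largest rises and falls among called genes whose groups do not overlap and whose level is at least 2 times that in other barcodes, up to 3 called genes per list (the most abundant where none was called), the rule's genes, Hedgehog genes and transgenes; further genes were chosen after their values were seen. Positions come from GENCODE M21 (GRCm38). Spp1, Col4a1, Igf2, Gpc3, Hspa8, Top2a, Trf and Tjp1 overlap another gene on the same strand and are uncertain to that extent. Leaving out each mouse and other normalizations, filters and limits were tried, and 2 alternatives (stromal denominators, and leaving out barcodes with granule or microglial UMIs) were added after seeing the data. Replicate numbers did not pair the mice by the correlation rule given below, although same-numbered vehicle and vismodegib tumors had adjacent serial numbers. Intervals and limits cover counting error only. Some genes that met the naming rule are not reported here.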

Additional observations from a re-analysis of the deposited data

Results flagged for a closer look

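Of 50 groups of 5 mice checked for 1 value far from the rest, 7 had one. The cutoff gives about 1 in 20 only for independent, normally distributed values. These groups share mice and some rest on few UMIs, so no excess is read. WT replicate 3 had a fibroblast share of 3.22%, above the other WT cerebella. Vehicle replicate 4 had 1708 CPM of Klf2 against 364 in the next tumor. WT replicate 1 had 549 CPM of Igfbp5 against 197 in the next, and the lowest Itm2a of its group, 843 CPM against 1032. Vehicle replicate 1 had 222 CPM of Ogn against 32.2, and 267 CPM of Gpc3 against 96.7. WT replicate 5 had 839 CPM of Gpc3 against 425.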

How the results depend on the processing

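All 3 share differences kept their direction and their call when barcodes were thinned, under the other limits of the rule and without any 1 mouse, with ranges of 0.676 to 0.89 points (vismodegib against vehicle), -1.8 to -1.44 (vehicle against WT) and -1.02 to -0.658 (vismodegib against WT). Earlier work drew 2 sets of tumors from gene levels in these same data, and no label gives them. Within them vismodegib exceeded vehicle by 0.883 and 0.747 points (mean 0.815, exact permutation within sets, p = 0.01, the smallest possible). As the sets come from the same data, that test is not separate evidence. Per endothelial barcode, the differences were 0.658, -1.43 and -0.774 and none was called. Relative to the 3 stromal classes, vismodegib against vehicle was 0.827 points and not called, and per microglial barcode it reversed to -0.0989; these ratios were chosen after seeing the data. Thinning reversed the difference in the share with proliferation UMIs to -3.13 points, with neither value called. The replicate block pairs same-numbered mice, which correlated at r of -0.162 to 0.175 in fibroblasts (at most 2 of 5 pairs over 0.1) and -0.22 to 0.421 in other barcodes (at most 3 of 5), so by the rule that every pair exceed 0.1 the numbers do not pair them; with it the share differences stayed 0.778, -1.7 and -0.919 (exact permutation, smallest possible p = 0.0625) and 5 and 256 genes were called.

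Calls between vismodegib and vehicle numbered 1 to 14 without 1 mouse (1 without vehicle replicate 5 or vismodegib replicate 4, 2 without vehicle replicate 2, 3 without vismodegib replicate 3, 14 without vehicle replicate 1), 1 with only these groups, 2 with sums thinned to the smallest, 3 with the tumor set as a term, 9 with DESeq2 and 35 with no filter on low counts. Those between vehicle and WT numbered 207 to 304 without 1 mouse, 108 with thinned sums (337 genes tested), 527 with no filter, 267 with DESeq2 and 136 without barcodes holding 2 granule or microglial UMIs (382 tested, chosen after seeing the data). Changes that differed from those in other barcodes numbered 183 and 52, and 52 and 13 with the others thinned, for vehicle against WT and vismodegib against vehicle. Among 1802 values of named genes under alternatives, no called gene reversed, 49 lost their call, 2 gained one and 50 of uncalled genes took the other sign. The smallest sum held 20334 UMIs, and with all sums thinned to it 337 of 841 genes had enough UMIs for a test.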

Other observations

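Ribosomal protein genes, read after the values were seen, were lower in vehicle than in WT fibroblasts in 37 of 44 tested and higher in none (median log2 fold change -1.55, beside 17.4% of all genes called lower). In other barcodes the log2 ratio of the means, which was not tested, was under 0 for 36 of the 44, with a median of -0.75, and 34 differed between the 2 changes. Of 8 mitochondrially encoded genes 4 were called lower, with a median of -0.89; in other barcodes the ratio was under 0 for 7, with a median of -0.70, and 0 differed between the changes. Between vismodegib and vehicle none of either class was called in fibroblasts. The median of the ribosomal genes was then -0.33 in fibroblasts and -0.65 in other barcodes, where the ratio was under 0 for all 44, and 1 differed between the changes. Ribosomal genes have many near-identical copies, so their counts are uncertain. Median mitochondrial shares of fibroblast barcodes were 3.63% ± 0.972 in WT, 1.60% ± 0.198 in vehicle and 2.53% ± 1.28 in vismodegib. In the differences from WT, the parts of age and capture device cannot be told apart from that of the tumor.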
